A study of Mus musculus with 21 samples.

Results

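The 10 genes described here encode the 5 subunits of the transcription factor NF-κB (Rela, Rel, Nfkb1, Relb and Nfkb2) and 5 proteins that restrain or modify it (Nfkbia, Nfkbie, Tnfaip3, Nfkbiz and Bcl3). They were chosen by symbol, with earlier results of these data known, and all 10 were among the 23420 genes of the count table. Their RNA was followed in 21 bulk RNA-Seq libraries of sorted mouse inflammatory monocytes (IMs), the CD45+ CD11b+ Ly6C-high, Ly6G- and Siglec-F- cells. Tumor inflammatory monocytes (TIMs) were compared with IMs from the bone marrow (BM IMs) of healthy mice. LN2E1 is a lung squamous cell carcinoma (LUSC) line made from the KAL line by passage through mice, and 500000 LN2E1 cells per mouse were placed in the lungs of FVB mice. TIMs were sorted from the resulting primary tumors (n = 5) and lymph node metastases (n = 5), and the baseline was BM IMs of tumor-free FVB mice (n = 3). LN4K1, a line made from KLN-205, was given intravenously at 300000 cells per mouse to DBA2 mice. TIMs of its lung metastases (n = 5) were set against BM IMs of tumor-free DBA2 mice (n = 3). The mice were adults of both sexes, and no allele or drug was added in any group. Line, strain, route and tissue changed together between the models and cannot be told apart, and TIMs but not BM IMs went through enzymatic digestion of tissue. The labels do not tie the libraries of a group to separate mice, and the study's methods speak of technical replicates, so the p-values measure the spread between these libraries, which may be technical.

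NF-κB is a family of dimeric transcription factors that wait in the cytoplasm of monocytes until a Toll-like, cytokine or TNF-family receptor signals. In the canonical arm, dimers of RELA, REL and the product of Nfkb1 are held by inhibitory IκB proteins. The IKK kinase marks these inhibitors for degradation, and the freed dimers move to the nucleus and switch on inflammatory genes. In the noncanonical arm, the kinase NIK leads to processing of the Nfkb2 precursor, which then acts as a dimer with RELB. Several of the genes that NF-κB switches on encode its own inhibitors, so that a signal is followed by feedback.

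By the GENCODE vM21 annotation of GRCm38, which is mm10, all 10 are protein-coding genes. The canonical subunits are Rela (chr19:5637483-5648130, plus strand), Rel (chr11:23736847-23770970, minus strand) and Nfkb1 (chr3:135584655-135691547, minus strand), and the noncanonical ones Relb (chr7:19606217-19629438, minus strand) and Nfkb2 (chr19:46304320-46312385, plus strand). The genes that restrain or modify NF-κB are Nfkbia (chr12:55489410-55492647, minus strand), Nfkbie (chr17:45555703-45563169, plus strand), Tnfaip3 (chr10:19000910-19015657, minus strand), Nfkbiz (chr16:55811375-55838899, minus strand) and Bcl3 (chr7:19808462-19822770, minus strand). The letters that NF-κB binds are shown first, because many of these genes are textbook targets of the factor they encode or restrain. RefSeq promoter windows of the GRCm38.p6 assembly, which run from 250 bases before to 50 bases after a gene's start and are 300 bases long, were found for 7 of the 10 genes: Rela, Rel, Nfkb2, Nfkbia, Nfkbie, Tnfaip3 and Bcl3. The κB consensus was searched on both strands in its purine-pyrimidine form, which is its own reverse complement, and overlapping matches were counted separately. At least 1 match lay in the windows of 6 of the 7 genes, against 12.6% of all 27025 genes with a window, and the window of Rela held none. Sequences follow on the strand of the gene, 5′ to 3′, with the matches in capitals. The first set gives the 130 bases before the start in the inhibitor genes Nfkbia (chr12:55492648-55492777, minus strand), Nfkbie (chr17:45555570-45555699, plus strand) and Tnfaip3 (chr10:19015411-19015540, minus strand).
Nfkbia: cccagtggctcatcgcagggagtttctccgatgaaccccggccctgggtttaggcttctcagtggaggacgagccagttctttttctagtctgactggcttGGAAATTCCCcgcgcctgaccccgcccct
Nfkbie: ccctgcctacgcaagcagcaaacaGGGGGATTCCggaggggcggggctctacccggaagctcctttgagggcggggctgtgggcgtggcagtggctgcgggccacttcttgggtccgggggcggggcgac
Tnfaip3: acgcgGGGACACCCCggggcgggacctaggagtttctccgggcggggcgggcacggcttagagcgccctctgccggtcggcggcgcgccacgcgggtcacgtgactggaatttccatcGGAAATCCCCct
A second set gives 30 bases around a match in Rel (chr11:23771041-23771070, minus strand), Nfkb2 (chr19:46304689-46304718, plus strand) and Bcl3 (chr7:19822734-19822763, minus strand). The capitals in Rel and Nfkb2 are 11 bases long because they hold a pair of overlapping matches.
Rel: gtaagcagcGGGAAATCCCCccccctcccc
Nfkb2: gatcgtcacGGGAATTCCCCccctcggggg
Bcl3: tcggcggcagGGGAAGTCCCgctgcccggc
Positions are counted from the start of the RefSeq transcript that each window belongs to, which need not be the GENCODE gene start given above: all 130 bases before the RefSeq start of this Nfkb2 window lie inside the GENCODE gene and in annotated exons, and the Tnfaip3 stretch lies inside the GENCODE gene but in no exon. The match began 29 bases before that start in Nfkbia, 106 bases before it in Nfkbie, 92 in Rel and 39 in the Nfkb2 window shown, and at base 3 after the start in Bcl3. Tnfaip3 carried 1 match beginning 125 bases and another beginning 12 bases before its start. At least 2 matches were present in 3 of the 7 genes, against 1.81% of all genes, and the matches within Rel and some of those within Nfkb2 overlap. A match describes letters and was not tested for binding here, and windows of Nfkb1, Relb and Nfkbiz were not analysed here.

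Total counts per library lay between 80772922 and 101043568, and the 10 genes had between 1481 and 148605 counts in a library, so counting error was small beside the spread between libraries. Values below are CPM, the counts of a gene relative to the size of the library, scaled between libraries with edgeR's TMM factors, given as mean ± SD. All 9 markers of inflammatory monocytes fixed for these samples were detected in every group, with summed levels between 42357 and 127923 CPM. Markers of other cells were present in unequal amounts. Macrophage markers summed to 1178 to 1337 CPM in FVB BM IMs, 2131 to 2811 in primary tumor TIMs and 2193 to 3561 in lymph node TIMs, and to 721 to 1869 in DBA2 BM IMs against 3624 to 5264 in LN4K1 lung TIMs. Lung epithelial markers summed to 133 to 848 CPM in primary tumor TIMs and at most 98.9 elsewhere, fibroblast markers to 167 to 525 CPM there and at most 66.6 elsewhere. All 5 squamous epithelial markers had at most 3 counts in every marrow library and summed to at most 2.50 CPM anywhere. Myeloid precursor markers summed to 2004 to 2553 CPM in BM IMs and 15.4 to 224 in TIMs, and eosinophil markers to 416 to 1080 and at most 67.5. Neutrophil markers summed to 2743 to 3250 CPM in FVB BM IMs and 573 to 1467 in LN2E1 TIMs, endothelial markers to 4.33 to 6.55 and 51.5 to 110.2 in the same groups, and T cell markers to at most 2.51 CPM in BM IMs and 3.42 to 54.7 in TIMs. Within their groups, LN4K1 lung replicate 3 and lymph node replicate 1 stood apart: the chi-square per degree of freedom between libraries was 432 to 860 in pairs with the former and 45.5 to 248 among the other 4, and 293 to 515 with the latter and 156 to 248 among the other 4. Leaving out either library changed no call of the 10 genes at an adjusted p under 0.05. In bulk RNA, fewer cells of a type and less RNA per cell cannot be told apart, and the part of these lists in the results below was not tested.

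TIMs of all 3 tumor sites held more RNA for most of these genes than BM IMs of the same strain. In primary tumors all 10 genes were higher than in FVB BM IMs by edgeR's quasi-likelihood test at an adjusted p under 0.05, a call made for 33.3% of the 14569 genes tested in that direction and for 28.6% in the other. In lymph node metastases 9 of the 10 were higher, against 20.2% of 13273 genes higher and 17.2% lower. In LN4K1 lung metastases 7 of the 10 were higher, against 13.9% of 13624 genes higher and 11% lower. Without LN4K1 lung replicate 3 the same 7 genes were called, against 20.2% higher, and without 1 of the DBA2 replicates 6 or 7 were called, against 7.91% to 8.96% higher. No member was called lower at any of the 3 sites. The median log2 fold change over the 10 genes was 1.83 in primary tumors, 1.76 in lymph nodes and 0.90 in LN4K1 lung, beside 0.08, -0.04 and 0.03 over all genes tested. At the study's stricter thresholds (adjusted p below 0.0001 with an absolute log2 fold change over 1), 7, 4 and 0 of the 10 passed, beside 7.72%, 4.01% and 1.21% of all genes called higher. The 7 in primary tumors were Rel, Relb, Nfkb2, Nfkbie, Tnfaip3, Nfkbiz and Bcl3, and the 4 in lymph nodes were Nfkb2, Nfkbie, Tnfaip3 and Bcl3. These counts and shares depended on single libraries and on the tool. Leaving out 1 library gave 5 to 7 genes in primary tumors, with 5 without FVB replicate 1 or 2 or primary tumor replicate 4 or 5. In lymph nodes it gave 1 to 5 genes, with 1 without FVB replicate 1 or lymph node replicate 3, 2 without FVB replicate 2 or lymph node replicate 2, and 5 without lymph node replicate 1. In LN4K1 lung it gave 0 throughout, while the share of all genes went from 1.21% to 2.74% without LN4K1 lung replicate 3 and to at most 0.711% without any 1 of the other libraries. The share in lymph nodes was 1.80% without FVB replicate 1, and over all left-out libraries it ranged from 1.64% to 4.79%, and that in primary tumors from 4.02% to 8.77%. DESeq2 with unshrunken fold changes, at the same thresholds, passed 8, 8 and 4 of the 10, beside 12%, 6.73% and 3.82% of all genes. With shrunken fold changes, which the study used, DESeq2 also passed 8, 8 and 4, beside 12%, 6.69% and 3.71%. EdgeR gave 8 of the 10 in LN4K1 lung at an unadjusted p under 0.05. No share of all genes was computed at that unadjusted p. The lowest TIM library exceeded the highest BM IM library for 10 genes in primary tumors, 9 in lymph nodes and 7 in LN4K1 lung, where 30.7%, 20.1% and 19.9% of all genes were so separated. Both LN2E1 comparisons use the same 3 FVB BM IM libraries, so their values stand side by side and are not independent.

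**Figure D1:**
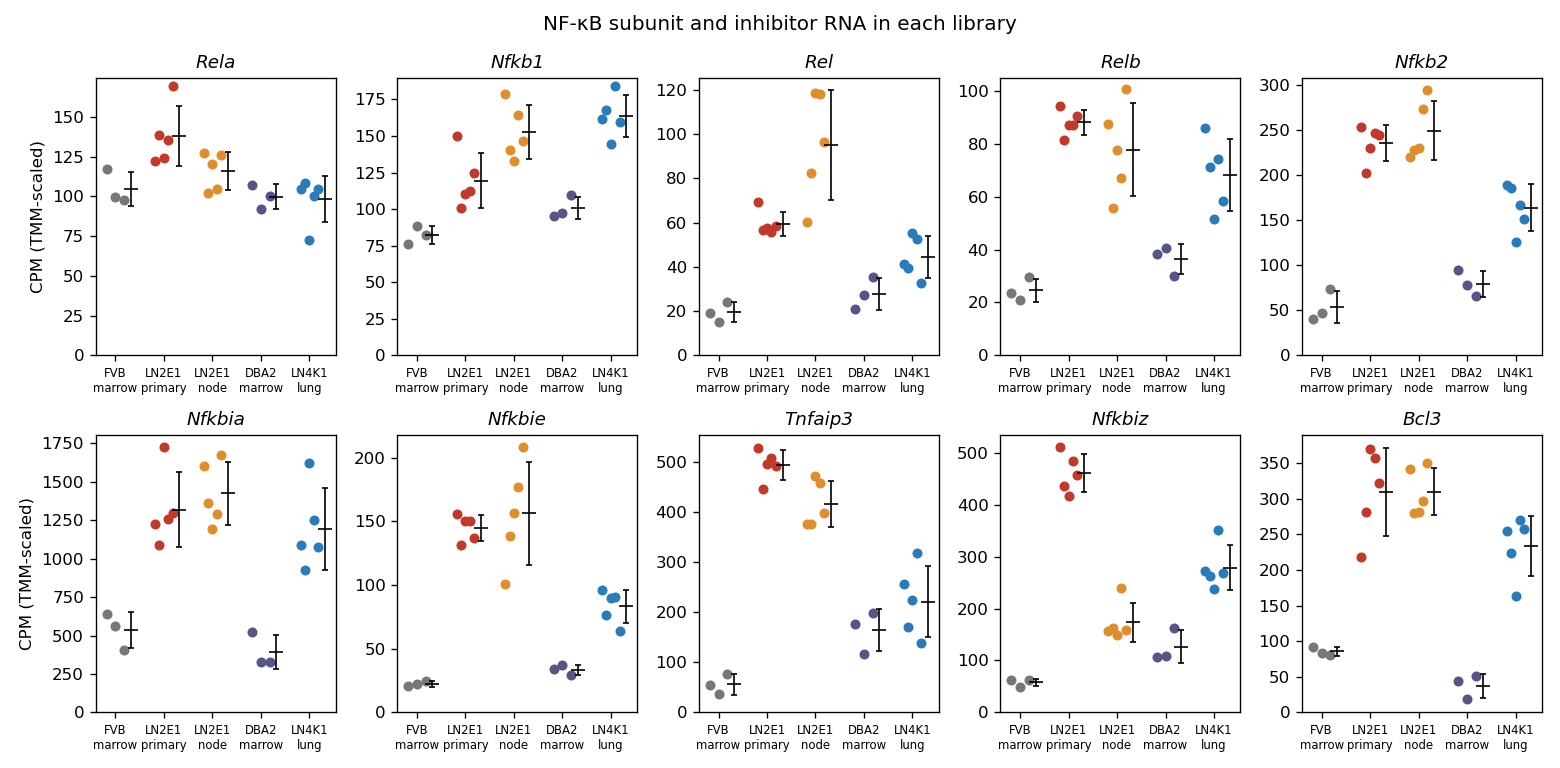
CPM of each gene (vertical axes, linear and starting at 0) in each of the 21 libraries, grouped along the horizontal axis as FVB marrow, LN2E1 primary tumor, LN2E1 lymph node, DBA2 marrow and LN4K1 lung. Each point is 1 library, and the bar and whiskers are mean ± SD. Rela sits at similar heights in all 5 groups, whereas Nfkbie lies between 20.6 and 24.6 CPM in FVB marrow and between 132 and 156 CPM in primary tumors.

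Among the canonical subunits, Rela, which encodes the main activating subunit p65, moved least. It had 117, 99.5 and 97.9 CPM in the FVB BM IM libraries and 122, 138, 124, 136 and 169 CPM in the primary tumor TIM libraries, the lowest TIM library lying just above the highest BM IM library. The log2 fold change was 0.38 (SE 0.12, adjusted p = 0.0206). This call rested on single libraries: it was lost without FVB BM IM replicate 2 (adjusted p = 0.0734) or replicate 3 (adjusted p = 0.0547), within a range of 0.30 to 0.49 in the fold change over all left-out libraries. Lymph node TIMs, at 127, 102, 120.2, 105 and 126 CPM, overlapped the BM IMs, and their log2 difference was 0.15 (SE 0.13, adjusted p = 0.417). LN4K1 lung TIMs had 105, 108, 72.7, 100.3 and 105 CPM beside 107, 91.9 and 99.9 CPM in DBA2 BM IMs. These groups overlapped as well, with a log2 difference of -0.10 (SE 0.15, adjusted p = 0.679).

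Nfkb1 encodes a precursor whose processed product p50 is the usual partner of RELA. It had 76.1, 88.1 and 82.6 CPM in FVB BM IMs, 149.8, 101, 110.1, 112 and 125 CPM in primary tumor TIMs and 179, 140.5, 133, 164 and 146 CPM in lymph node TIMs. Neither TIM group overlapped the BM IMs, but the rise was small: 0.52 (SE 0.13, adjusted p = 0.00694) in primary tumors and 0.89 (SE 0.13, adjusted p = 0.000629) in lymph nodes on the log2 scale. In the LN4K1 model the gene went from 95.4, 97.7 and 109.5 CPM in DBA2 BM IMs to 162, 168, 144, 184 and 159.6 CPM in lung TIMs, again without overlap, a log2 fold change of 0.62 (SE 0.12, adjusted p = 0.00437). Rel encodes c-Rel, an activating subunit best known from blood cells. FVB BM IMs had 19.2, 15.1 and 24.1 CPM, primary tumor TIMs 69.3, 56.5, 57.7, 55.7 and 58.4 CPM, and lymph node TIMs 60.2, 82.5, 118.5, 118 and 96.7 CPM. All 10 LN2E1 libraries lay above all 3 BM IM libraries, with log2 fold changes of 1.59 (SE 0.16, adjusted p = 3.15e-05) and 2.29 (SE 0.27, adjusted p = 0.000131). In LN4K1 lung TIMs, Rel had 41.3, 39.7, 55.3, 52.8 and 32.7 CPM against 20.8, 27.1 and 35.4 CPM in DBA2 BM IMs. The lowest TIM library fell below the highest BM IM library, and the difference of 0.60 (SE 0.23) missed the threshold with an adjusted p of 0.0858. It passed with DESeq2 (adjusted p = 0.0402 unshrunken) and in a fit of all 5 groups (adjusted p = 0.0376).

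The subunits of the noncanonical arm rose at all 3 sites. Relb encodes the subunit that pairs with processed NF-κB2. It had 23.4, 20.8 and 29.4 CPM in FVB BM IMs, 94.4, 81.4, 87.2, 87.1 and 90.3 CPM in primary tumor TIMs, and 87.5, 55.5, 77.6, 67.2 and 100.6 CPM in lymph node TIMs. The primary tumor libraries lay within a narrow band and the lymph node libraries spread around it, all above the BM IMs. Their log2 fold changes were 1.82 (SE 0.13, adjusted p = 3.42e-06) and 1.66 (SE 0.22, adjusted p = 0.000318). LN4K1 lung TIMs had 85.9, 71.2, 51.4, 74.1 and 58.2 CPM against 38.4, 40.6 and 29.9 CPM in DBA2 BM IMs, a separation with a log2 fold change of 0.83 (SE 0.19, adjusted p = 0.0126) that was not called without DBA2 BM IM replicate 3 (adjusted p = 0.0681). Nfkb2 encodes the precursor p100, which itself retains RELB in the cytoplasm until it is processed to p52. It stood at 39.9, 47.4 and 73.9 CPM in FVB BM IMs and at 253, 202, 229.9, 247 and 244 CPM in primary tumor TIMs, a 4.29-fold increase (log2 fold change 2.10, SE 0.20, adjusted p = 2.15e-05). Lymph node TIMs had 219.7, 227, 229.9, 273 and 294 CPM, with a log2 fold change of 2.21 (SE 0.22, adjusted p = 4.75e-05). In LN4K1 lung TIMs the 5 libraries had 189, 186, 126, 166 and 151 CPM and the DBA2 BM IMs 94.1, 77.9 and 65.9 CPM, for a log2 fold change of 0.97 (SE 0.18, adjusted p = 0.00361). None of these TIM libraries overlapped its baseline. Reads carried no strand, and 11.6% of the exon bases of Nfkb2 overlap the noncoding gene AC114539.1 and 6.52% overlap Psd, both on the opposite strand, so reads from those stretches cannot be assigned to Nfkb2 with certainty.

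Nfkbia encodes IκBα, the inhibitor that is degraded and remade within a canonical response. Per kilobase of exon it was the most abundant of the 10 RNAs in every group. FVB BM IMs had 638, 564 and 408 CPM, primary tumor TIMs 1227, 1088, 1728, 1256 and 1294 CPM, and lymph node TIMs 1601, 1360.4, 1193, 1289 and 1672 CPM. Every TIM library exceeded every BM IM library, and the log2 fold changes were 1.28 (SE 0.18, adjusted p = 0.000226) and 1.41 (SE 0.17, adjusted p = 0.000176). DBA2 BM IMs had 523, 329 and 329 CPM and LN4K1 lung TIMs 1087, 923, 1625, 1249.8 and 1074 CPM, with a log2 fold change of 1.52 (SE 0.23, adjusted p = 0.00123). Nfkbia thus rose by similar amounts at the 3 sites. Nfkbie encodes IκBε, a slower inhibitor of REL- and RELA-containing dimers. Its FVB BM IM libraries had 20.6, 21.96 and 24.6 CPM, its primary tumor TIM libraries 156, 132, 150.0, 150.3 and 137 CPM and its lymph node TIM libraries 100.9, 139, 157, 177 and 208 CPM. The primary tumor value was 6.37-fold the BM IM value (log2 fold change 2.67, SE 0.11, adjusted p = 1.69e-07), and the lymph node log2 fold change was 2.80 (SE 0.24, adjusted p = 1.63e-05). The LN4K1 rise was smaller, from 33.8, 36.9 and 29.2 CPM to 96.3, 76.3, 89.6, 90.3 and 63.9 CPM, a log2 fold change of 1.25 (SE 0.17, adjusted p = 0.000602).

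Tnfaip3 encodes the ubiquitin-editing enzyme known as A20, which stops signals upstream of IKK. It showed the largest increase of the 10 genes in primary tumors and no call in LN4K1 lung. FVB BM IMs had 54.7, 36.1 and 77.1 CPM, primary tumor TIMs 527, 446, 494, 507 and 490.4 CPM, and lymph node TIMs 376, 376, 470.3, 458 and 398 CPM. The primary tumor rise was 8.65-fold (log2 fold change 3.11, SE 0.24, adjusted p = 4.63e-06), and the lymph node log2 fold change was 2.89 (SE 0.25, adjusted p = 1.71e-05). DBA2 BM IMs had 177, 117 and 197 CPM, above every FVB BM IM library, and LN4K1 lung TIMs had 257, 170.3, 223, 317 and 138 CPM. The LN4K1 groups overlapped, and their log2 difference was 0.36 (SE 0.28, adjusted p = 0.402).

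The remaining genes encode atypical IκB proteins that work in the nucleus, where they act with the subunits p50 and p52 on selected genes. Nfkbiz encodes IκBζ, which is needed for a subset of secondary response genes. It had 62.0, 49.6 and 61.9 CPM in FVB BM IMs and 510.5, 437, 417, 484 and 458 CPM in primary tumor TIMs, a 7.85-fold increase (log2 fold change 2.97, SE 0.12, adjusted p = 1.59e-07). Lymph node TIMs had 157, 163, 149.6, 240.2 and 159 CPM, above the BM IMs by a log2 fold change of 1.58 (SE 0.19, adjusted p = 0.000137) but below every primary tumor library. In LN4K1 lung TIMs the values were 272, 263, 237, 352 and 269 CPM, beside 107, 109 and 163 CPM in DBA2 BM IMs (log2 fold change 1.06, SE 0.19, adjusted p = 0.00303). Bcl3 encodes a partner of p50 and p52 homodimers that can activate or repress. FVB BM IMs had 92.2, 84.0 and 80.8 CPM, primary tumor TIMs 218, 282, 370.0, 357 and 322 CPM, and lymph node TIMs 342, 281, 281, 297 and 350.0 CPM. Both TIM groups were separated from the BM IMs, with log2 fold changes of 1.84 (SE 0.17, adjusted p = 1.79e-05) and 1.86 (SE 0.13, adjusted p = 3.94e-06). Bcl3 gave the largest change of the 10 genes in the LN4K1 model, from 44.0, 18.7 and 50.6 CPM in DBA2 BM IMs to 255, 224, 164, 269.7 and 258 CPM in lung TIMs (log2 fold change 2.55, SE 0.33, adjusted p = 0.000485). Of the exon bases of Bcl3, 6.51% overlap the antisense gene Gm16175, whose reads cannot be separated without strand.

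**Figure D2:**
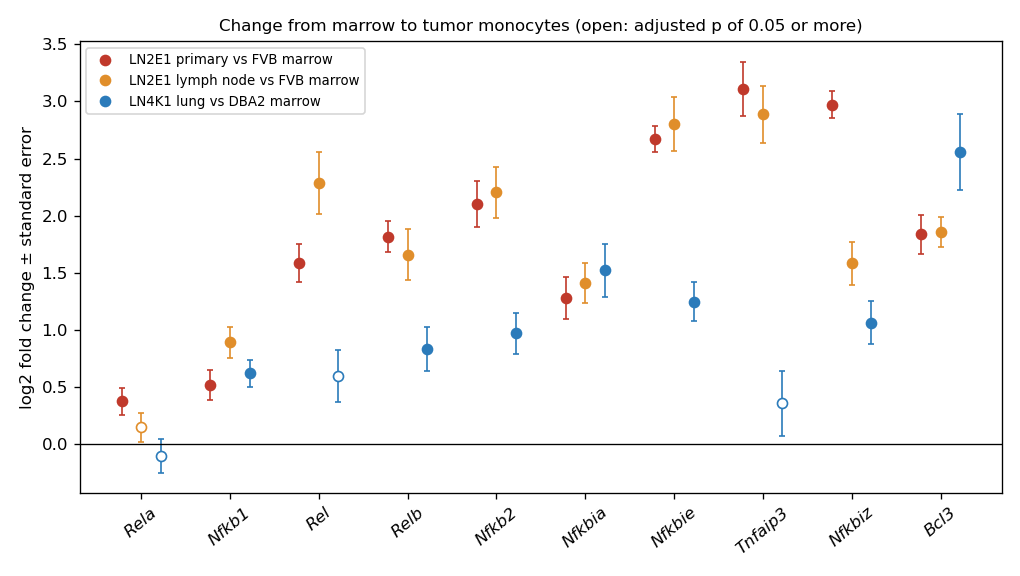
Log2 fold change ± standard error (vertical axis) of each gene in TIMs against BM IMs of the same strain, for primary tumor, lymph node and LN4K1 lung. Filled points had an adjusted p under 0.05 and open points did not. The open points are Rela in lymph node and LN4K1 lung, and Rel and Tnfaip3 in LN4K1 lung.

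Genes of the immediate early response, which handling and dissociation of tissue also induce, are given as a summed level beside these results. All 9 genes of that list were detected in every group. Their sum was 8317 to 13425 CPM in FVB BM IMs and 12138 to 15710 CPM in primary tumor TIMs, which overlapped. In lymph node TIMs the sum was 5824 to 7961 CPM, below every FVB BM IM library. It was 12283 to 24254 CPM in DBA2 BM IMs and 17130 to 25246 CPM in LN4K1 lung TIMs. Dendritic cell markers, which are relevant because these cells use RELB, summed to 78.3 to 89.0 CPM in FVB BM IMs, 107 to 169 in primary tumor TIMs, 52.0 to 144 in lymph node TIMs, 93.0 to 109 in DBA2 BM IMs and 103 to 343 in LN4K1 lung TIMs. The part of either list in the changes was not tested.

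The sites of the LN2E1 model differed for 2 of the 10 genes, against 11.7% of 13488 genes called in either direction between lymph node and primary tumor TIMs. Nfkbiz was 2.64-fold lower in lymph nodes (log2 difference -1.40, SE 0.13, adjusted p = 0.000282), at 174 ± 37.6 CPM (SD, n = 5) against 461 ± 37.0 CPM (SD, n = 5), without overlap. This call held when any 1 library was left out. Rel was higher in lymph nodes, at 95.2 ± 24.8 CPM (SD, n = 5) against 59.5 ± 5.56 CPM (SD, n = 5), with overlapping libraries and a log2 difference of 0.69 (SE 0.17, adjusted p = 0.0247). The Rel call was lost when primary tumor replicate 2, 3, 4 or 5 was left out (adjusted p of 0.0631, 0.0522, 0.0718 and 0.0612), so that 1 gene remained called. Without primary tumor replicate 1, Nfkb1 passed in addition (log2 difference 0.44, adjusted p = 0.0323), and without lymph node replicate 3, Tnfaip3 passed (log2 difference -0.30, adjusted p = 0.0373). With all libraries, Nfkb1 was at 0.36 (SE 0.12, adjusted p = 0.0801), Tnfaip3 at -0.24 (SE 0.09, adjusted p = 0.113) and Rela at -0.24 (SE 0.11, adjusted p = 0.192). Bcl3 was at 0.01 (SE 0.14, adjusted p = 0.973), a difference whose sign turned with the scaling. Fibroblast and lung epithelial markers stood higher in primary tumor TIMs, and their part in these differences was not tested.

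The strains started from unequal baselines. Between BM IMs of tumor-free DBA2 and FVB mice, 4 of the 10 genes differed, against 21.1% of 12905 genes in either direction. Tnfaip3 was higher in DBA2, at 164 ± 41.9 CPM (SD, n = 3) against 56.0 ± 20.5 CPM (SD, n = 3), a log2 difference of 1.57 (SE 0.30, adjusted p = 0.00914). Nfkbiz was higher by 1.15 (SE 0.19, adjusted p = 0.00494), at 126 ± 32.05 CPM (SD, n = 3) against 57.8 ± 7.15 CPM (SD, n = 3). Both held without any 1 library. Nfkbie was higher by 0.59 (SE 0.15, adjusted p = 0.0257), at 33.3 ± 3.91 CPM (SD, n = 3) against 22.4 ± 2.05 CPM (SD, n = 3). Bcl3 went the other way, at 37.8 ± 16.9 CPM (SD, n = 3) in DBA2 against 85.7 ± 5.88 CPM (SD, n = 3) in FVB (log2 difference -1.16, SE 0.31, adjusted p = 0.0342). The count was unstable. Without FVB replicate 3 it was 7, with Rel, Relb, Nfkb1 and Nfkb2 gained and Bcl3 lost, against 36.4% of all genes. Without FVB replicate 1 or 2 it was 2, Tnfaip3 and Nfkbiz, against 10.3% and 8.40% of all genes. Without DBA2 replicate 1 it was 3, Tnfaip3, Nfkbiz and Nfkbia, the last lower in DBA2, against 13.3% of all genes. Without DBA2 replicate 2 it was 3, Tnfaip3, Nfkbiz and Bcl3, against 9.37%. The Nfkbie call was lost in each of these 4 fits. The immediate early list was at 12283 to 24254 CPM in DBA2 and 8317 to 13425 CPM in FVB BM IMs, and its part was not tested. With all libraries, Rela had a log2 difference of -0.05 (adjusted p = 0.795) and Nfkbia of -0.42 (adjusted p = 0.195).

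The increase from BM IMs to TIMs was then compared between LN2E1 primary tumors and LN4K1 lung metastases as an interaction in 1 fit. For 6 of the 10 genes the increase was larger in primary tumors, against 13.2% of 15182 genes called in that direction. The excess was largest for Tnfaip3, at 2.77 (SE 0.38, adjusted p = 0.00028) on the log2 scale, followed by Nfkbiz at 1.92 (SE 0.22, adjusted p = 7.24e-05) and Nfkbie at 1.44 (SE 0.19, adjusted p = 0.000228). Nfkb2 had an excess of 1.15 (SE 0.27, adjusted p = 0.00676), Rel of 1.01 (SE 0.28, adjusted p = 0.0166) and Relb of 1.001 (SE 0.24, adjusted p = 0.0069). These differences contain the unequal baselines above: the higher DBA2 level of Tnfaip3 in BM IMs is part of its value. The Rel call was lost without FVB replicate 1 or 2 or DBA2 replicate 3, with adjusted p of 0.0504, 0.0565 and 0.0592. With the replicate number added as a block, the calls of Nfkb2 (adjusted p = 0.116), Relb (adjusted p = 0.0901) and Rel were lost. Tnfaip3, Nfkbiz and Nfkbie were still called with it, against 3.65% of all genes higher. Bcl3 was at -0.70 (SE 0.36, adjusted p = 0.165), Nfkbia at -0.22 (adjusted p = 0.634), Nfkb1 at -0.09 (adjusted p = 0.776) and Rela at 0.49 (adjusted p = 0.0721). Without the block, the genes called higher were thus 3 of the 5 subunits and 3 of the 5 genes that restrain or modify NF-κB.

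**Figure D3:**
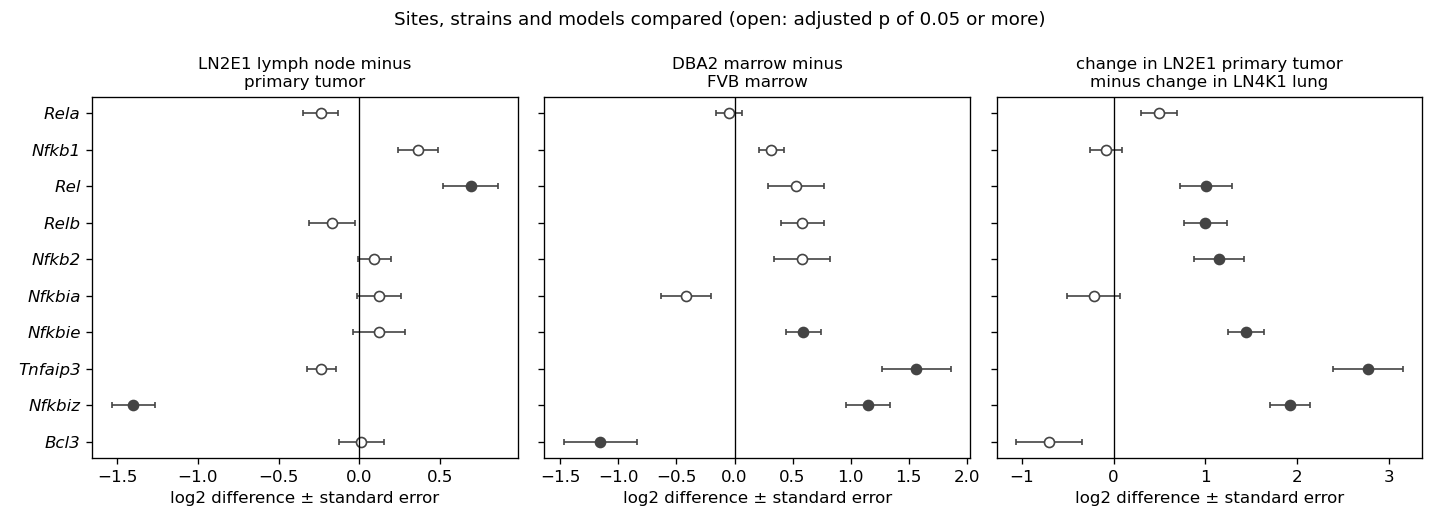
Log2 differences ± standard error (horizontal axes, each panel with its own scale) of the 10 genes for lymph node minus primary tumor TIMs, DBA2 minus FVB BM IMs, and the change in LN2E1 primary tumors minus the change in LN4K1 lung. Filled points had an adjusted p under 0.05. Nfkbiz stands apart on the left at -1.40, and Tnfaip3 lies farthest right in the panels for strains and models, at 1.57 and 2.77.

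Levels were compared between genes as CPM per kilobase of exon. Nfkbia came first in every group, with 333 CPM per kilobase in FVB BM IMs, 819 in primary tumor, 884 in lymph node, 244 in DBA2 BM IMs and 740 in LN4K1 lung, and its libraries never overlapped those of the next gene. Bcl3 came second in FVB BM IMs (34.6) and in the 3 TIM groups (125 in primary tumor, 125 in lymph node and 94.6 in LN4K1 lung) but at place 6 in DBA2 BM IMs (15.3). It overlapped the next gene in every group except lymph node TIMs. Rela held place 3 in FVB BM IMs at 34.1 CPM per kilobase and place 2 in DBA2 BM IMs at 32.5, and places 7, 6 and 5 in primary tumor, lymph node and LN4K1 lung TIMs, where more of the other members lay above it. Rel was lowest in FVB BM IMs (2.61), primary tumor (7.97), DBA2 BM IMs (3.72) and LN4K1 lung (5.94), and shared the lowest level with Nfkb1 in lymph nodes (12.7 each). The place of Nfkb1 depended on the length used. Its exons together span 12061 bases and its longest transcript 4149, and with the latter it moved from place 8 to 4 in FVB BM IMs and from 9 to 8 in primary tumors. It moved from place 9 to 5 in DBA2 BM IMs and LN4K1 lung, and from 10 to 8 in lymph nodes. There it stood at 36.8 CPM per kilobase by the longest transcript, and Rel alone was lowest.

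Ratios within a library do not depend on scaling between libraries, and they showed how the balance of the family differed. Per kilobase, the ratio of Nfkb2 to Nfkb1 was 1.72 in FVB BM IMs (1.38 to 2.35), 5.23 in primary tumor TIMs (4.44 to 5.79) and 4.34 in lymph node TIMs (3.23 to 5.29), with no overlap between BM IMs and TIMs. In the LN4K1 model it was 2.63 (2.30 to 3.08) against 2.09 in DBA2 BM IMs (1.58 to 2.60), which overlapped. The size of this ratio depended on the length used for Nfkb1. By the longest transcript, Nfkb2 lay below Nfkb1 in FVB BM IMs (14.0 against 19.8 CPM per kilobase) and DBA2 BM IMs (20.6 against 24.3). Nfkb2 lay above Nfkb1 in primary tumor (61.1 against 28.8), lymph node (64.7 against 36.8) and LN4K1 lung TIMs (42.5 against 39.4). The ratio of Relb to Rela was 0.187 in FVB and 0.290 in DBA2 BM IMs, and 0.512, 0.525 and 0.550 in primary tumor, lymph node and LN4K1 lung TIMs. Its highest BM IM library was at 0.349 and its lowest TIM library at 0.422, so that BM IMs and TIMs of all groups were separate. The ratio of Rel to Rela was 0.0771 in FVB BM IMs, 0.181 in primary tumors and 0.343 in lymph nodes, and 0.116 in DBA2 BM IMs against 0.194 in LN4K1 lung, the last pair overlapping. The ratio of the inhibitor Nfkbia to Rela was 9.72 in FVB and 7.46 in DBA2 BM IMs, and 18.6, 23.4 and 24.4 in primary tumor, lymph node and LN4K1 lung TIMs. The highest BM IM library was at 10.8 and the lowest TIM library at 14.6. Between the inhibitors, Nfkbie to Nfkbia was 0.0232 in FVB BM IMs, 0.0592 in primary tumors and 0.0590 in lymph nodes, without overlap, but 0.0468 in DBA2 BM IMs and 0.0379 in LN4K1 lung, with overlap.

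**Figure D4:**
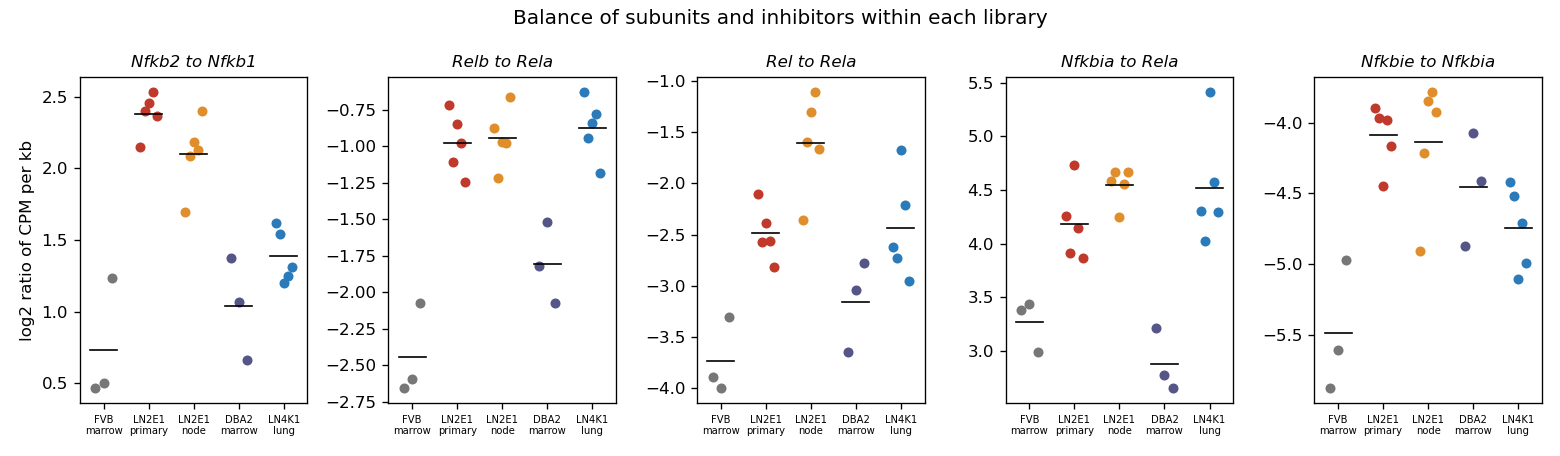
Log2 ratios of CPM per kilobase within each library (vertical axes, each panel with its own scale) for 5 pairs of genes, by group; each point is 1 library and the bar is the mean of the log2 ratios. BM IMs and TIMs of every group are separate for Relb to Rela and for Nfkbia to Rela, whereas Nfkbie to Nfkbia overlaps in the LN4K1 model.

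The wider pathway was read from 4 lists of genes. They too were chosen with earlier results of these data known, so counts above the share of all genes are not independent support. In the list of the IKK complex and its adaptors, 12 of 21 genes were higher and 4 lower in primary tumor TIMs, 7 higher and 2 lower in lymph node TIMs, and 2 higher and 1 lower in LN4K1 lung TIMs. Among all genes, 33.3%, 20.2% and 13.9% were higher and 28.6%, 17.2% and 11% lower at these sites, so the share higher in LN4K1 lung and the shares lower in all 3 lay below those of all genes. The list medians were 0.44, 0.36 and 0.05 on the log2 scale, beside the medians of all genes given above. Only 3 of its genes were called in the same direction at all 3 sites. Myd88, the adaptor of Toll-like and interleukin-1 receptors, stood at 186 ± 6.50 CPM in FVB BM IMs (SD, n = 3) and was higher in primary tumor TIMs at 586 ± 46.2 CPM and lymph node TIMs at 603 ± 71.9 CPM (SD, n = 5 each), with log2 fold changes of 1.63 and 1.70, and by 1.62 in LN4K1 lung. Sharpin, a part of the linear ubiquitin chain assembly complex, rose by 0.46, 0.48 and 0.38, and Traf2, an adaptor of TNF receptors, had log2 fold changes of -0.71, -0.73 and -1.06 in the same order.

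In the list of the noncanonical arm, 10 of 11 genes were higher in primary tumor TIMs, 9 in lymph node TIMs and 6 in LN4K1 lung TIMs, and none was lower, against the same 33.3%, 20.2% and 13.9% of all genes higher. The medians were 1.79, 1.37 and 0.85. Its genes called at all 3 sites numbered 5, and the 4 with the largest smallest change were receptors of the TNF receptor family. The other was Birc3, at 0.71, 0.91 and 0.86 in primary tumor, lymph node and LN4K1 lung. The list was not divided into genes that drive and genes that restrain the arm. Its counts therefore give no direction of activity. Tnfrsf12a, which encodes the receptor of TWEAK, had log2 fold changes of 2.68, 2.36 and 1.45 in primary tumor, lymph node and LN4K1 lung. Tnfrsf11a, which encodes RANK, had 1.86, 1.25 and 1.59, Cd40 had 1.84, 2.10 and 0.85, and Ltbr, the lymphotoxin β receptor gene, had 1.25, 1.10 and 0.83. Map3k14, which encodes the kinase NIK, was looked at after its values were seen. It rose by 2.23 (SE 0.31, adjusted p = 0.0002) in primary tumors and 1.63 (SE 0.46, adjusted p = 0.0184) in lymph nodes, and was at 0.43 (SE 0.21, adjusted p = 0.163) in LN4K1 lung.

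Among other inhibitors and feedback genes of the pathway, 15 of 19 were higher and 1 lower in primary tumors, 11 higher and 1 lower in lymph nodes, and 9 higher and 0 lower in LN4K1 lung, with medians of 0.77, 0.95 and 0.49, where 33.3%, 20.2% and 13.9% of all genes were higher and 28.6%, 17.2% and 11% lower. Traf1, an adaptor that NF-κB induces, was low in BM IMs at 1.31 ± 0.549 CPM (SD, n = 3) in FVB and 1.64 ± 1.42 CPM (SD, n = 3) in DBA2. It reached 46.7 ± 7.33 CPM in primary tumor, 60.5 ± 12.8 in lymph node and 15.9 ± 3.76 in LN4K1 lung TIMs (SD, n = 5 each), log2 fold changes of 5.12, 5.52 and 3.20. Nlrc5, best known as the activator of MHC class I genes, changed by 4.32, 4.39 and 1.34. Peli1, a ubiquitin ligase, changed by 1.63, 2.04 and 1.27, and N4bp1 by 1.10, 1.14 and 1.10. The IκB family genes outside the 10, Nfkbib and Nfkbid, were also looked at after their values were seen. Nfkbib rose by 0.40, 0.60 and 0.79 (adjusted p = 0.0119, 0.00572 and 0.000575), and Nfkbid rose by 0.57 in primary tumors (adjusted p = 0.00388) and was at 0.05 and -0.19 at the other sites (adjusted p = 0.821 and 0.590). Tnip1, a partner of the Tnfaip3 protein chosen in the same way, had a pattern like that of Tnfaip3: DBA2 BM IMs exceeded FVB BM IMs by 1.57 (SE 0.20, adjusted p = 0.00158), and the log2 fold changes were 1.77 and 1.49 in LN2E1 and -0.20 in LN4K1 lung, the last with an adjusted p of 0.660.

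Of 45 genes listed as NF-κB targets, 40 were higher and 3 lower in primary tumors, 35 of 43 tested were higher and 2 lower in lymph nodes, and 30 of 42 tested were higher and 0 lower in LN4K1 lung. The list also holds genes of general inflammatory activation, and control of its genes by NF-κB was not tested. Of all genes, 33.3%, 20.2% and 13.9% were called higher and 28.6%, 17.2% and 11% lower. The list was chosen with earlier results of these data known, so its excess over these shares is a description only. The medians were 2.69, 2.71 and 1.92. Among the listed genes with a mean log2 CPM above 3, 24 were called in the same direction at all 3 sites. Il1b, which encodes interleukin-1β, led them with a log2 fold change of at least 6.95 at every site. Cd83, a marker of activated antigen-presenting cells, had 4.55, 4.86 and 3.79. Il1rn, the interleukin-1 receptor antagonist, had 5.51, 5.06 and 3.60, and Bcl2a1b, a survival gene of the BCL2 family, had 3.74, 4.47 and 4.10. Bcl2a1b belongs to a family of near-identical copies, and its counts are uncertain for that reason.

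For each of the 10 genes, the genes with the closest profile over the 21 libraries were named by the root mean square difference of centered log2 CPM, with 8016 genes searched whose log2 CPM averaged above 3. Likeness here is a description over 21 libraries in 5 groups. The difference was not scaled by how much a gene varied, so it tends to be larger for genes with larger changes. Nfkbia was closest to Sod2 (0.231), which encodes mitochondrial superoxide dismutase, and to Cbr3 (0.237). Relb was closest to Csf2rb (0.173), the common β chain of the GM-CSF receptor, and Fgr (0.239), and Nfkb2 to Tnfrsf1a (0.186), the first TNF receptor, and Emilin2 (0.231). Rela was closest to Ppp2r1a (0.156) and Tinf2 (0.181), and Nfkb1 to Ptpro (0.168) and Mpp1 (0.181). Rel was closest to Adrbk2 (0.230) and Itga4 (0.238), and Nfkbie to Hif1a (0.290), the hypoxia-inducible factor subunit, and Acp2 (0.302). The profiles of Bcl3, Tnfaip3 and Nfkbiz had the least close neighbors: Nfil3 (0.345) and Hspa2 (0.368) for Bcl3, Atp8b2 (0.361) and Jarid2 (0.363) for Tnfaip3, and Atp6v0a1 (0.421) and Trib1 (0.450) for Nfkbiz.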

How the data were processed

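RNA was measured in 21 libraries of sorted IMs. The authors trimmed reads with BBDuk, used BBMap for alignment to mm10 and obtained gene counts from featureCounts 1.5.2 (Subread), and SAMtools 1.8 is also named in the submitters' notes. The deposited values are their raw read counts for 23420 gene symbols. Groups followed the sample labels, and no count column was without a sample. The members and gene lists were chosen with earlier results of these data known.

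Counts were analyzed with edgeR 4.0.16 in R 4.3.3. Every comparison had a fit of its own, over the libraries of the groups compared, with TMM factors, the default low-count filter (minimum count 10, minimum total 15), the robust quasi-likelihood test and Benjamini-Hochberg adjustment over all genes tested, and called at an adjusted p under 0.05. Tests were two-sided. CPM was scaled by TMM over the 21 libraries, with a prior count of 2 on the log2 scale. Exon lengths and gene positions are those of GENCODE vM21. SEs are approximate (absolute log2 fold change over the square root of F).

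Alternatives were DESeq2 1.42.0 and its size factors in edgeR, other filters, a fit of all 5 groups, a replicate block, the study's thresholds, longest-transcript lengths, and leaving out each library. In simulated counts, all genes with a log2 change of 2 were recovered in each comparison. Of those with a change of 1, 72% were recovered for primary tumor, 85% for lymph node and 85% for LN4K1 lung against marrow. The shares were 90% between sites, 61% between strains and 30% for the interaction. In the same order, the simulations held 12355, 11712, 11747, 12080, 11504 and 12195 genes. These numbers count every gene in a simulation, not only those with a change of 1. Whether the simulated spread matched that of the real libraries was not tested, so the shares may not hold for them. Named pathway genes were, from each list, up to 4 genes called in 1 direction in all 3 comparisons of tumor with marrow, ranked by their smallest absolute change, with a mean log2 CPM above 3, except those said in the text to be chosen after their values were seen. Genes absent from the table, Otulin of the pathway lists and Adgre1, Ly6g, Siglecf and Trac of the marker lists, were not analysed here. A count of 0 in a library allows up to 3 counts. Intervals and SDs do not cover losses before sequencing.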

Additional observations from a re-analysis of the deposited data

Results flagged for a closer look

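In groups of 5 libraries, the distance of the extreme library from its neighbor was compared with Dixon's 95% critical value, which chance passes in about 1 of 20 groups; 30 groups were checked and 3 passed. Rel was highest in primary tumor replicate 1, at 69.3 CPM beside 55.7 to 58.4 CPM in the other 4 libraries. Rela was lowest in LN4K1 lung replicate 3, at 72.7 CPM beside 100.3 to 108 CPM. Nfkbiz was highest in lymph node replicate 4, at 240.2 CPM beside 149.6 to 163 CPM, and even this library lay below every primary tumor library.

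The change from BM IMs to TIMs differed between LN2E1 primary tumors and LN4K1 lung metastases, by edgeR's interaction test, for 6 genes. On the log2 scale the excess in primary tumors was 2.77 for Tnfaip3, 1.92 for Nfkbiz, 1.44 for Nfkbie, 1.15 for Nfkb2, 1.01 for Rel and 1.001 for Relb. Line, strain, route and tissue cannot be told apart in this difference.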

How the results depend on the processing

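Each log2 difference of the 10 genes in the 6 comparisons was recomputed under every alternative. Of 970 such values, 911 (93.9%) kept direction and side of the threshold, 29 were lost as calls, 18 were gained and 12 turned sign. All those that turned sign were uncalled differences near 0. The sites' difference of Bcl3 was -0.0181 with DESeq2's size factors, -0.0385 with 10 counts in every library, -0.00205 in a fit of all 5 groups, -0.0180 with DESeq2 unshrunken and -0.0161 shrunken, and it ranged from -0.104 to 0.0841 over left-out libraries. Nfkbie ranged from -0.00387 to 0.24 between sites, and Rela from -0.11 to 0.0325 between strains. The cause was not tested.

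At the study's stricter thresholds, the number of the 10 genes that edgeR called fell to 4 in lymph node, 0 in LN4K1 lung, 0 between sites, 0 between strains and 1 for the interaction. Of all genes, 4.01% in lymph node, 1.21% in LN4K1 lung and 0.329% for the interaction were then called higher. In either direction, 0.0297% were called between sites and 0.403% between strains. At an unadjusted p under 0.05, edgeR gave 8, 5 and 7 of the 10 in LN4K1 lung, between sites and between strains. No share of all genes was computed at that p. DESeq2 passed 4, 1 and 2 there at the study's thresholds, both unshrunken and shrunken, so the fall also depended on the tool. Beside this stood, unshrunken, 3.82% of all genes higher in LN4K1 lung, and 2.06% between sites and 3.39% between strains in either direction. Shrunken, these shares were 3.71%, 0.756% and 3.06%. At an adjusted p under 0.05, over left-out libraries, the number ranged from 9 to 10 in primary tumor and stayed at 9 in lymph node. It ranged from 6 to 7 in LN4K1 lung, 1 to 3 between sites, 2 to 7 between strains and 5 to 6 for the interaction. In the same fits, 28.6% to 33.3% of all genes were higher in primary tumor, 14.1% to 23.6% in lymph node and 7.91% to 20.2% in LN4K1 lung. For the interaction 8.2% to 15.8% were higher. In either direction, 6.54% to 16.2% were called between sites and 8.4% to 36.4% between strains. With the replicate number as a block it was 8 in primary tumor, 9 in lymph node, 5 in LN4K1 lung, 1 between sites, 4 between strains and 3 for the interaction. The calls lost were Nfkb1 and Rela in primary tumor, Nfkb1 and Nfkbiz in LN4K1 lung, and Rel between sites. Rel, Relb and Nfkb2 were lost for the interaction. Between strains Nfkbie was lost and Nfkbia gained. With that block, 24.2%, 16.2% and 4.97% of all genes were higher at the 3 tumor sites and 3.65% for the interaction. In either direction, 3.95% were called between sites and 18.5% between strains. Same-numbered libraries did not deviate together as a rule (correlations from -0.297 to 0.297 over the comparisons), and the labels give them only a shared number. In lymph node against FVB marrow, lymph node replicates 1, 2 and 3 each correlated best with the FVB library of their own number, a hint from the data and not from the design. Lymph node replicates 4 and 5 have no same-numbered FVB library and correlated best with FVB replicate 3 (0.235 and 0.129). With 3 libraries in a marrow group, leaving out 1 leaves 2. For the interaction, DESeq2 was run without shrinkage only.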
